A study of Rattus norvegicus with 39 samples.

Results

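The 220 RNAcentral rRNA entries described here were chosen by name and by count from a table of small RNA reads in rat sperm. RNAcentral is a database of noncoding RNA sequences, and its entries include full-length molecules, partial sequences and fragments. Of the 78572 rows of the deposited RNAcentral table, 483 were named as rat rRNA, and 230 of those reached a summed count of 390 over the 39 libraries, a mean of 10 per library. Rows with identical counts in every library were taken as 1 entry, which left 220 distinct entries (10 rows repeated another). The 253 rRNA rows under the minimum held 0.0231% of the rRNA counts, and 24 of them had no count at all. The 3 entries just inside the minimum had summed counts of 425, 445 and 459, and the 3 rows just outside it had 375, 376 and 378.

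The libraries came from spermatozoa of the cauda epididymis, where mature sperm are stored, of wild-type male Fischer rats 11 to 12 weeks old. The males were gavaged daily for 5 days with ethylene glycol monomethyl ether (EGME), a solvent known to damage developing germ cells, and sperm were taken after 5 weeks without exposure. The groups received 0 (EGME0, water vehicle), 50 (EGME50), 60 (EGME60) or 75 mg/kg/d (EGME75), with n = 10, 10, 9 and 10 libraries of 1 male each. All groups shared the strain, genotype, route and recovery time, and sequencing used 13 chips that each took 3 libraries from mixed dose groups.

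rRNAs form the core of the ribosome, the particle that translates mRNA into protein. The cytoplasmic ribosome takes most of its rRNA from a long precursor made in the nucleolus, whereas mitochondria make their own rRNAs from the mitochondrial genome. Mature sperm translate little, and their rRNA is known to be largely broken down, so that small RNA libraries of sperm hold many rRNA fragments. The tables gave the entries as RNAcentral identifiers with no subunit or gene name, and no rRNA sequence was used here, so whether an entry was nuclear or mitochondrial was not read from its name. Entries with related sequences can take the same reads: 84 of the 220 stood in groups whose counts differed by at most 5%, the largest of 11, and the 220 entries formed 160 such groups in all. Identifiers are therefore uncertain within a group, and the entries are not independent of each other.

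The RNAcentral table held 98123 (EGME75 replicate 24) to 12856657 counts (EGME60 replicate 38) per library, and the group medians, in dose order, were 1839060, 2368420, 3563330 and 2841200. The rRNA entries held at least 68019 counts in every library, and a median of 206, 216.5, 220 and 219.5 of the 220 were detected in the 4 groups. EGME0 replicate 33 (262869 counts) and EGME75 replicate 24 were the shallowest libraries. EGME75 replicate 16 and EGME60 replicate 6 stood apart from their groups in some of the rRNA values given below. EGME60 replicate 13 was at the end of a wide spread in its group.

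Germ cell miRNAs, the markers of the labelled cell type, were present, at medians of 26.3%, 21.5%, 15.3% and 13.3% of the miRNA counts in dose order. Of these 6 markers (miR-34b and miR-34c arms, miR-449a-5p, miR-449c-5p), only miR-449c-5p was at 0, in all EGME0 libraries. Blood cell miRNAs (6 of 7 listed were in the table) ran at 0% to 0.343% (median 0.114%) at EGME0, 0.119% to 1.24% at EGME50, 0.0216% to 2.17% (median 0.837%) at EGME60 and 0.248% to 4.82% (median 0.788%) at EGME75, and miR-144-3p was at 0 in all groups but EGME60. Epithelial miRNAs (5 of 5) ran from 0.625% to 1.29% at EGME0, 0.612% to 3.33% at EGME50, 0.251% to 3.01% at EGME60 and 1.81% to 4.77% at EGME75. Muscle miRNAs (4 of 4) had medians of 1.67%, 2.33%, 3.63% and 3.70%, within ranges of 0.954% to 3.27% at EGME0 and 1.12% to 9.80% at EGME75, with miR-1-3p at 0 in all treated groups. These shares rested on 139 to 38208 miRNA counts per library, with medians of 15324.5 at EGME0 and 3201.5 at EGME75. The markers moved with dose beside the rRNA values below, and their part in those values was not tested. In bulk RNA, fewer cells of a type and less RNA per cell cannot be told apart.

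The first question was how much of the table the rRNA entries held at each dose. Their share of the RNAcentral counts was 43.8% ± 7.27 (SD, n = 10) in the EGME0 males and 43.6% ± 7.14 (n = 10) in the EGME50 males. It was 55.1% ± 15.9 (n = 9) in the EGME60 males and 71.8% ± 10.7 (n = 10) in the EGME75 males. The lowest, median and highest library had 33.9%, 42.1% and 55.3% at EGME0 against 47.8%, 73.0% and 90.1% at EGME75. EGME75 replicate 16 was the lowest EGME75 library and the only one of the 10 inside the control range. EGME60 spanned both ranges, from 32.6% (replicate 6) to 79.7% (replicate 38).

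The difference from control was 27.99 percentage points at EGME75, with 10 of 10 libraries above the control median (two-sided permutation test, p = 2e-05, the smallest that 100000 permutations can give, adjusted p = 6e-05 over 3 doses). With chip as a block the EGME75 difference was 19.9 points (adjusted permutation p = 0.0057). At EGME60 the difference of 11.3 points did not pass (exact permutation test, p = 0.0619, adjusted p = 0.0929, 8 of 9 libraries above the control median). Without EGME60 replicate 6, the lowest library, it was 14.1 points and passed (adjusted exact permutation p = 0.0241). Without EGME60 replicate 22 or 38, the highest libraries, it was 8.46 and 8.26 points (adjusted exact permutation p = 0.196 for both). At EGME50 the difference was -0.14 points (permutation p = 0.961, adjusted p = 0.961, 6 of 10 libraries above the control median).

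Within that share, the entries fell into sets that moved in opposite directions. At EGME75, 217 of the 220 entries passed the filter on low counts and were tested over the whole RNAcentral table with edgeR's quasi-likelihood test at a Benjamini-Hochberg adjusted p of 0.05. Of these, 162 were higher than in control, where 19.8% of all 2757 rows tested were called higher, and 50 were lower, where 18% of all rows were called lower. The 162 were a far larger share of the tested entries than that of all rows. The 50 were a share not far above that of all rows, so the number of lower calls hardly sets the rRNA entries apart. Only 5 tested entries were not called, and 3 were not tested. The 162 entries are called the rising set and the 50 the falling set from here on, and since they were defined by this comparison, sums and ratios over them are descriptions without a test. The 3 comparisons with control share the EGME0 libraries.

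**Figure D1:**
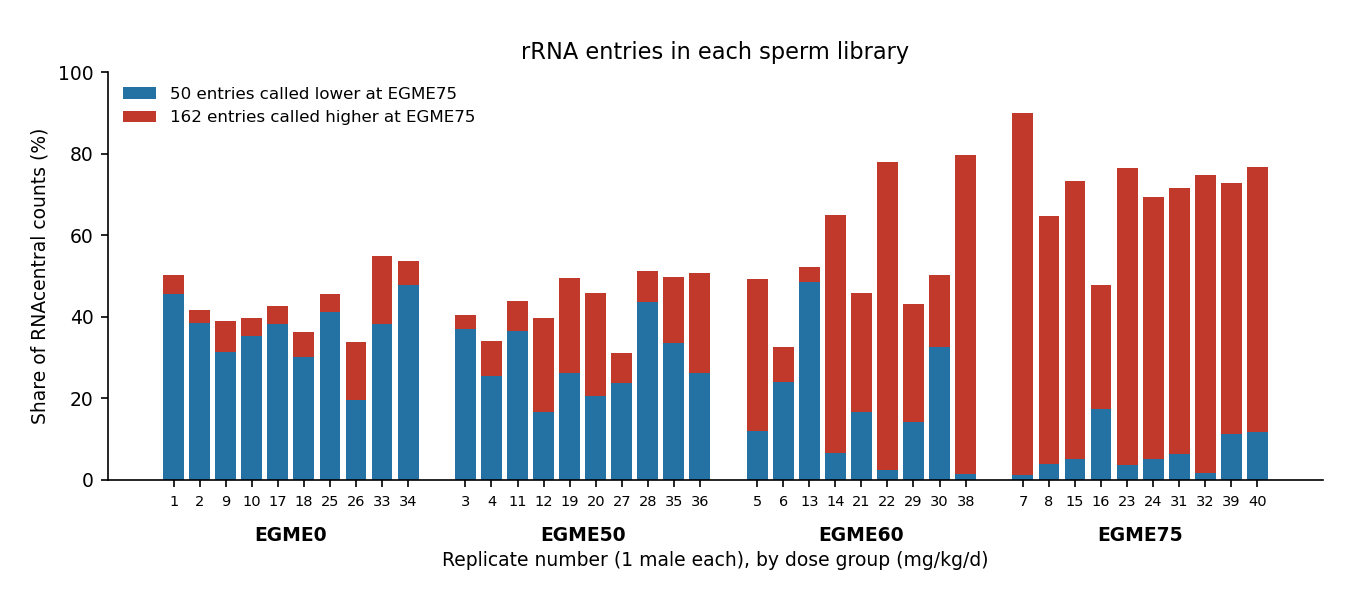
Share of the RNAcentral counts (y axis, %) held by the 162 rRNA entries called higher at EGME75 (red) and the 50 called lower (blue) in each library (x axis, replicate number within dose group), with 1 male per bar. The 8 remaining entries, at most 0.266% in any library, are not drawn. The blue part is the larger in all 10 EGME0 libraries and the red part in all 10 EGME75 libraries, while EGME60 holds libraries of both kinds.

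The rising set held 69.3% of all rRNA counts, as 128 groups of near-identical counts, and its entries had summed counts from 425 to 6980344. In controls it took 7.19% ± 4.57 (SD) of the RNAcentral counts, with 3.24%, 5.37% and 16.7% in the lowest, median and highest library. The EGME50 libraries averaged 14.7% ± 8.67, with 3.57%, 12.4% and 25.2%. The EGME60 libraries averaged 37.5% ± 27.5, with 3.82%, 29.2% and 78.1%. The EGME75 libraries averaged 65.0% ± 14.7, with 30.4%, 65.2% and 88.8%. The EGME0 and EGME75 ranges did not overlap, and EGME60 covered almost the whole span between them.

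The falling set held 30.7% of the rRNA counts, as 24 groups of near-identical counts. It took 36.6% ± 8.09 of the RNAcentral counts in controls, and 28.98% ± 8.42, 17.6% ± 15.3 and 6.78% ± 5.15 at the 3 rising doses. Its lowest and highest libraries had 19.7% and 47.7% at EGME0 and 1.23% and 17.4% at EGME75, again without overlap.

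The balance of the sets in a library turned over with dose. Counts of the rising set per count of the falling set had a median of 0.122 in controls, which went to 0.409, 2.06 and 12.7 at the 3 doses. The control libraries lay between 0.0842 and 0.722, and the EGME75 libraries between 1.74 (replicate 16) and 72.0 (replicate 7). At EGME60 the ratio ran from 0.0789 in replicate 13, below the lowest control library, to 49.2 in replicate 38. EGME60 replicates 13 and 6 had rising shares of 3.82% and 8.43%, inside the control range. EGME60 replicates 5, 14, 22 and 38 had 37.1%, 58.5%, 75.4% and 78.1%, inside the EGME75 range.

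Relative to the whole table, the log2 fold changes of the rising set at EGME75 ran from 1.72 to 8.97 with a median of 3.79. The fold changes of the falling set ran from -2.22 to -1.33 with a median of -1.74, a much narrower range. CPM stands for counts per 1000000 counts of the RNAcentral table. In 92 of the 217 tested entries every EGME75 library had a higher CPM than every EGME0 library, against 7.98% of all 2757 rows tested. In 31 of the 217 every EGME75 library was below every EGME0 library, against 1.41% of all rows. All 92 were in the rising set and all 31 in the falling set, which the same libraries defined. Over all 217 entries the median log2 fold change was 3.49, against -0.62 over all rows tested.

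The scaling moved these values but not their signs. The median of all rows at EGME75 was -0.62 with TMM factors, -1.38 with RLE factors and -1.32 with totals alone. Under the 3 scalings the rising set had medians of 3.79, 2.90 and 2.53, all 162 entries positive, and the falling set -1.74, -2.55 and -2.47, with 0 entries positive. Measured from the median of all rows, the rising set stood at 4.41, 4.28 and 3.86 and the falling set at -1.12, -1.17 and -1.15.

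**Figure D2:**
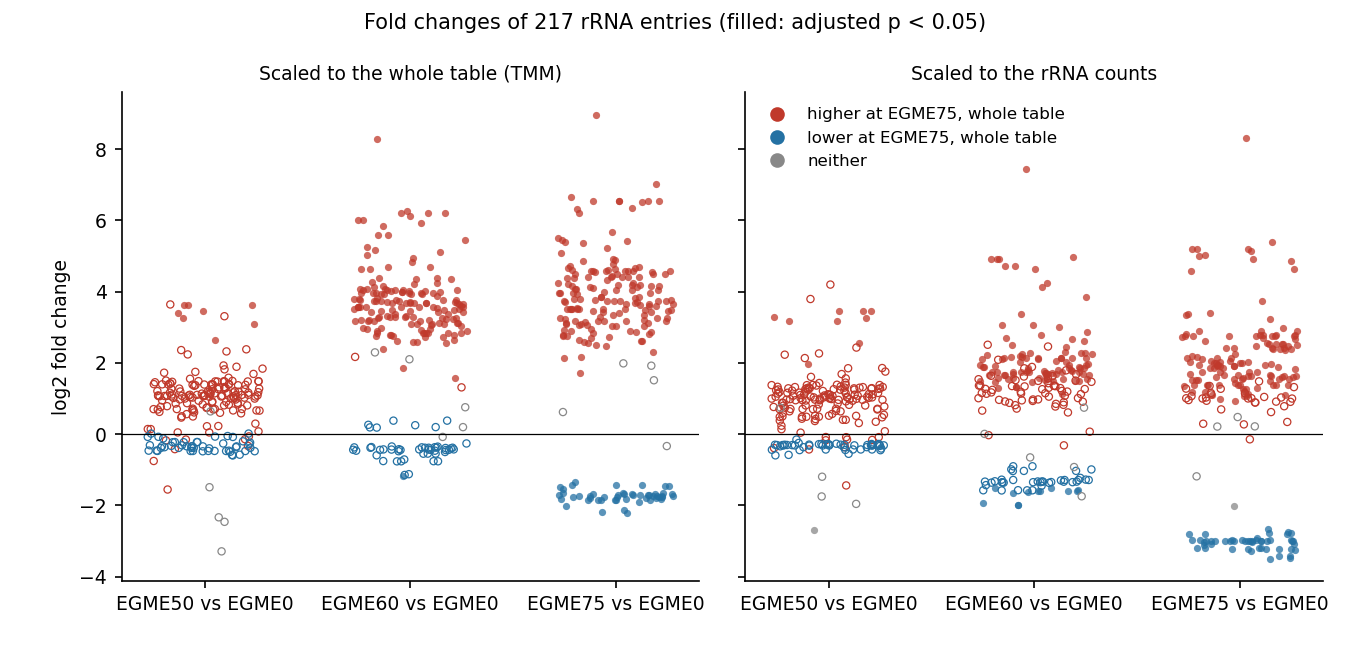
log2 fold change (y axis) of the 217 tested rRNA entries in each dose comparison (x axis), scaled to the whole table (left) and to the rRNA counts (right). Each point is 1 entry, coloured by its call at EGME75 in the whole-table fit and filled where the adjusted p is under 0.05 in the comparison shown. At EGME75 the blue points form a narrow band, with a median of -1.74 in the left panel and -3.01 in the right, and the red points spread over several log2 units. The medians of all rows tested, not drawn, were -0.62 and -1.89 on these 2 scales.

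At EGME60, 160 entries were higher (20.3% of all rows) and 1 was lower (0.58% of all rows) by the same test. The rising set had log2 fold changes of 1.31 to 8.29 there, with a median of 3.59. Its median was lower under the other scalings, 2.50 with RLE factors and 2.15 with totals alone. The lowest entry of the set then stood at 0.27 and 0.03. The falling set had -1.18 to 0.38, with a median of -0.43, and 7 of its 50 entries were positive. With RLE factors or unscaled totals none of the 50 was positive, and the set's medians were -0.85 and -1.17. With library totals alone 139 entries were higher and 17 lower at EGME60. In the RNAcentral table the share of all rows called was counted for the main fits only. Call counts under other scalings, tests, filters or blocks, or without a library, therefore stand here and below without that share. They show how the calls depend on the fit and cannot be set against the table as a whole.

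At EGME50, 8 entries were higher (1.49% of all rows) and 0 lower (0.0363% of all rows), and 69 of the 217 had an unadjusted edgeR p under 0.05. DESeq2 called 17 higher and 0 lower, and edgeR with RLE factors 7 higher and 1 lower. The 8 entries had log2 fold changes of 2.64 to 3.62 and adjusted edgeR p-values of 0.0166 to 0.0348, and 6 of them shared 1 group of near-identical counts, so that the 8 stood for 3 groups. The rising set ran from -1.55 to 3.64 with a median of 1.10, and 154 of 162 entries were positive. The falling set ran from -0.60 to 0.02 with a median of -0.35.

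The EGME50 calls rested on single libraries. No entry was called without EGME0 replicate 2, EGME50 replicate 12 or EGME50 replicate 20 (29 to 37 entries at an unadjusted p under 0.05), and 5 were called without EGME0 replicate 17 or 25 and 4 without EGME50 replicate 36 or EGME60 replicate 5. The count was 23 without EGME50 replicate 4, 22 without EGME50 replicate 27, 16 without EGME60 replicate 29 and 15 without EGME75 replicate 16. With chip as a fixed block 0 entries were called at EGME50 (21 at an unadjusted p under 0.05), against 152 higher and 2 lower at EGME60 and 153 higher and 48 lower at EGME75.

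A slope on dose over all 39 libraries rose for 161 entries (19.9% of all rows) and fell for 38 (7.91% of all rows). The slopes that rose had a median log2 change of 3.92 over 75 mg/kg/d, and those that fell ranged from -1.87 to -1.06. The count of falling slopes depended on the fit and on single libraries. It was 48 with RLE factors, 51 with totals alone, 50 with DESeq2, 50 with limma-voom and 47 with chip as a fixed block, but 6 without the filter. The main fit was also repeated without each library. The count was then 6 without EGME50 replicate 4, 10 without EGME0 replicate 1 or 18, 11 without EGME50 replicate 19 or 27 or EGME75 replicate 16, 12 without EGME0 replicate 9 or EGME60 replicate 29, 17 without EGME0 replicate 17, 20 without EGME0 replicate 10, and 25 without EGME75 replicate 23 or 31.

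The second question was which entries moved relative to the rRNA counts as a whole, with the summed rRNA entries as the library size. On this scale 132 entries were higher at EGME75 (14% of all rows) and 51 lower (56.3% of all rows). The 51 were a smaller share of the tested entries than that of all rows. The median log2 fold change over all 2757 rows tested was -1.89 on this scale, so most rows shifted down together. The rising set ran from -0.15 to 8.32 with a median of 1.86, and the falling set from -3.49 to -2.66 with a median of -3.01. So 30 of the 162 rising entries did not pass as gaining share within the rRNA. TMM factors taken within the rRNA entries gave 66 higher and 53 lower at EGME75, and without the filter on low counts the split was 65 and 51.

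At EGME60 within the rRNA, 100 entries were higher (9.79% of all rows) and 12 lower (2.21% of all rows), or 36 and 22 with TMM factors within the rRNA. The lower count was 3 without EGME60 replicate 14 or 22, 21 without EGME60 replicate 21, 23 without EGME75 replicate 7, 24 without EGME60 replicate 30, 28 without EGME0 replicate 33 and 31 without EGME60 replicate 13 or EGME75 replicate 16. At EGME50, 9 entries were higher (1.41% of all rows) and 1 lower (0.0725% of all rows), or 0 and 1 with TMM factors within the rRNA. The EGME50 count of 10 calls was 1 without EGME0 replicate 17, 18 or 34 or EGME50 replicate 12, 19 or 20, 2 without EGME0 replicate 2 or 25, and 6 without EGME50 replicate 36. The slope within the rRNA rose for 123 entries (13% of all rows) and fell for 51 (17.2% of all rows), or 63 and 54 with TMM factors within the rRNA.

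The entry with the largest count summed over all libraries was URS0000CCF7C7, a member of the rising set, with 6980344 counts and a mean of 6.97% of the rRNA counts. That rank depended on dose: its mean was 2.35% at EGME0 and 4.60% at EGME50, below the 7.86% and 6.33% of the leading falling entry, and 8.57% and 12.5% at EGME60 and EGME75, above its 3.83% and 0.991%. Its CPM ran from 3700 to 22604 at EGME0 (median 7571), from 4624 to 37615 at EGME50 (median 16810), from 6471 to 123887 at EGME60 (median 39964) and from 38072 to 122185 at EGME75 (median 95741). Every EGME75 library was above every EGME0 library, while EGME50 and EGME60 overlapped the controls. Its log2 fold change at EGME75 was 4.39 (SE 0.71, edgeR adjusted p = 1.96e-06) relative to the table and 2.41 (SE 0.40) within the rRNA. At EGME60 it was 4.03 and at EGME50 1.08, the latter not past the threshold (edgeR adjusted p = 0.600). With RLE factors and totals alone the EGME60 value was 2.77 and 2.36, and the EGME75 value 3.51 and 3.16.

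The 3 entries most like it across the 39 libraries, by Pearson's r of log2 CPM, ranked 2, 4 and 3 by summed count and had r of 0.9995, 0.9968 and 0.9964. These entries share libraries and depth and may share reads. The top entry also kept a near-constant part of its set: it made up 11.4% to 16.9% of the rising counts in every library, with means of 13.9% to 14.1% in the 4 groups, while the set itself grew from 7.19% to 65.0% of the table. This entry and those most like it held much of the set's counts, so part of this steadiness was built in.

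The rising entry with the smallest p at EGME75 was URS00008C644C, 86th by summed count (39404). It had 3 to 38 counts per EGME0 library, or 2.24 to 45.7 CPM (median 5.42), and the highest value was that of the shallow EGME0 replicate 33. EGME50 libraries had 4.21 to 304 CPM (median 69.7), EGME60 libraries 2.44 to 828 (median 214) and EGME75 libraries 173 to 1415 (median 612). The EGME75 libraries all exceeded the controls. Its log2 fold change was 3.09 at EGME50 (SE 0.79, edgeR adjusted p = 0.0289), 5.85 at EGME60 (SE 0.89) and 7.03 at EGME75 (SE 0.93, adjusted p = 7.04e-07). The EGME50 call was lost without any 1 of EGME0 replicates 2, 10, 17, 18, 25 and 34, EGME50 replicates 12, 20 and 36, or EGME60 replicate 5.

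**Figure D3:**
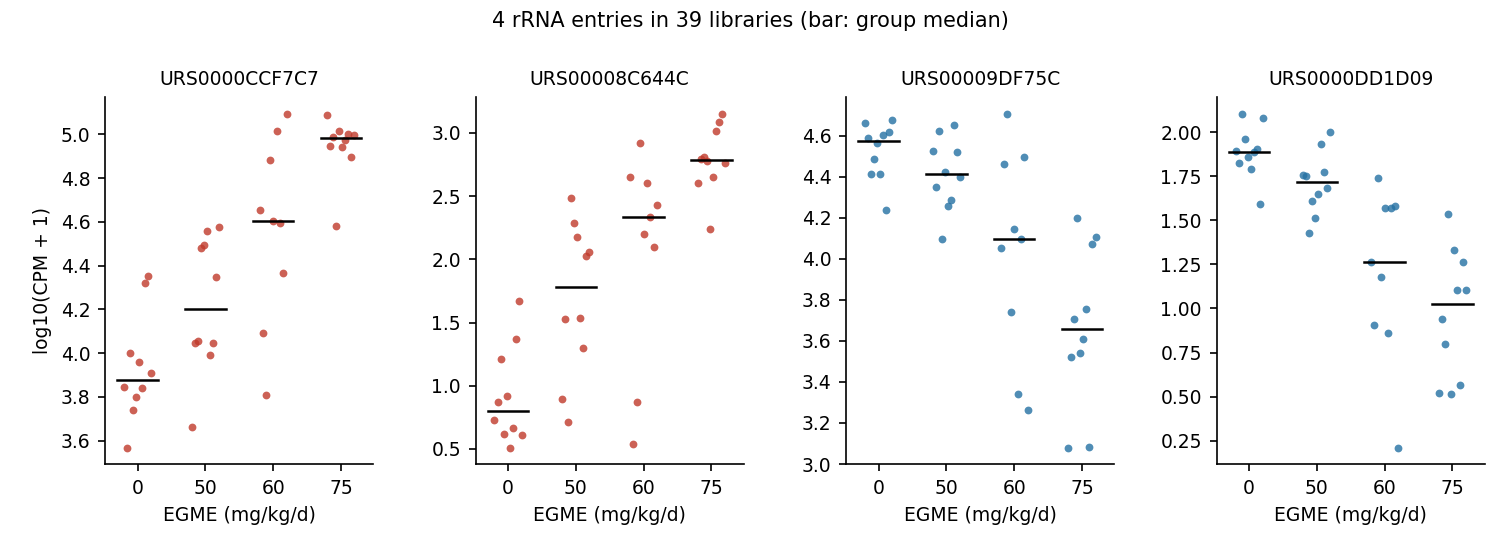
log10(CPM + 1) of 4 rRNA entries (y axis, a scale of its own in each panel) against EGME dose (x axis, mg/kg/d), with 1 point per library and a bar at the group median. For the rising entries (red) the medians climb from 7571 to 95741 CPM and from 5.42 to 612 CPM between 0 and 75 mg/kg/d, and for the falling entries (blue) they drop from 37617 to 4575 CPM and from 76.5 to 9.74 CPM.

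The most abundant member of the falling set was URS00009DF75C, with a mean of 4.78% of the rRNA counts. Its CPM ran from 17226 to 47394 at EGME0 (median 37617), from 12538 to 44966 at EGME50 (median 25785), from 1833 to 50752 at EGME60 (median 12511) and from 1200 to 15749 at EGME75 (median 4575). All EGME75 libraries were below all EGME0 libraries, and the highest EGME60 library was above them. The log2 fold change at EGME75 was -1.67 (SE 0.54, edgeR adjusted p = 0.0130) relative to the table and -2.99 (SE 0.51) within the rRNA. Relative to the table the call was lost without EGME0 replicate 1 or 18, EGME50 replicate 4 or 19, or EGME75 replicate 16, with edgeR adjusted p-values of 0.0541 to 0.0989. At EGME50 it was -0.08, not past the threshold. At EGME60 it was 0.18 with TMM factors, -0.34 with RLE factors and -1.001 with totals alone, and it passed the threshold under none of these, so its direction there is not settled.

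With TMM factors the largest fall at EGME75 was that of URS0000DD1D09, a scarce entry with a summed count of 3854. It stood at -2.987 with RLE factors and -2.881 with totals alone, where the largest falls were -2.997 and -2.914. It had 38.04 to 126 CPM at EGME0 (median 76.5), 25.8 to 99.01 at EGME50 (median 51.3), 0.622 to 53.8 at EGME60 (median 17.4) and 2.29 to 33.3 at EGME75 (median 9.74). Each EGME75 library was below each control library. The log2 fold change was -2.22 at EGME75 (SE 0.45, edgeR adjusted p = 6.38e-05). At EGME60 it was -1.15 (SE 0.44), with an edgeR adjusted p of 0.0581. It passed in 8 of the 39 fits that left out 1 library, among them that without EGME60 replicate 13 (-1.52, edgeR adjusted p = 0.00769). It also passed with RLE factors (-1.59), totals alone (-1.81), DESeq2 (-1.60), limma-voom with chips as random (-1.61) and the fixed chip block (-1.59), and did not pass without the filter (edgeR adjusted p = 0.343) or with identical rows collapsed (0.0722).

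Of the 10 entries with the largest mean share of rRNA counts, 5 were in the rising and 5 in the falling set. The 5 rising entries together made up 9.44%, 18.6%, 35.8% and 52.2% of the rRNA counts in dose order. The 5 falling entries made up 36.5%, 29.3%, 18.04% and 4.61%. All 10 together made up 45.96% of the rRNA counts at EGME0 and 56.8% at EGME75.

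How evenly the counts spread over the entries was measured as the effective number of entries, the exponential of the Shannon entropy. In dose order it was 32.1 ± 5.79 (SD), 38.1 ± 8.94, 32.2 ± 9.38 and 28.1 ± 7.93, and none of the differences from control passed the threshold (permutation tests, exact at EGME60, adjusted p = 0.272, 0.985 and 0.325). With chip as a block the effective number differed from control by 9.76, 0.25 and -0.25 in dose order (adjusted permutation p = 0.0933, 0.958 and 0.958). The inverse Simpson index, which gives more weight to the leading entries, differed from control by -6.48 at EGME75 (15.8 against 22.2, adjusted permutation p = 0.0223). That index was not tested with the chip block.

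Both sets held scarce and abundant entries. The rising set's median log2 fold change at EGME75 was 3.72 for the 59 entries with summed counts under 3900 and 4.48 for the 13 entries of 390000 or more. The classes between them, from 3900 and from 39000, had medians of 3.51 (49 entries) and 4.15 (41 entries). In the falling set the medians over the same classes were -1.86 (2 entries), -1.73 (16), -1.81 (17) and -1.72 (15). In 51 of the 162 rising entries at least 1 control library had no count.

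A single rising entry had 0 counts in all 10 EGME0 libraries, which allows at most 0.155 CPM over the pooled controls (3 counts, counting error only). It was detected in 3 of 10 EGME50 libraries (11 counts), 8 of 9 EGME60 libraries (344 counts) and 8 of 10 EGME75 libraries, at pooled values of 0.457, 7.82 and 17.2 CPM. These were at least 2.95-fold higher at EGME50, at least 50.4-fold higher at EGME60 and at least 111-fold higher at EGME75 than that limit. The highest fitted log2 fold change of the set, 8.97, belongs to this entry and depends on the prior count.

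The 8 entries outside both sets were scarce, with summed counts of 445 to 7127, and in all 8 the highest control CPM was that of EGME0 replicate 33. The most abundant of them had 447 counts there, or 1700 CPM, against 2.72 to 39.7 CPM in the other 9 control libraries and 23.1 to 164 CPM at EGME75. Without EGME0 replicate 33 the 5 tested entries were higher at EGME75, with log2 fold changes of 3.31 to 6.57 and edgeR adjusted p-values of 8.14e-07 to 0.000816. All 217 tested entries were then called at EGME75, 167 higher and 50 lower. The entry with 1700 CPM was also the single lower call at EGME50 within the rRNA.

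The deposited ncRNA table, made against Ensembl transcripts, gave a measure of rRNA outside the RNAcentral table, although a read can be part of both counts. Its 2 mitochondrial rRNA rows (Mt_rRNA) held 11.8% ± 4.84 (SD), 9.49% ± 2.82, 6.71% ± 5.75 and 3.59% ± 1.77 of the counts of the 4 deposited tables in dose order. In that table's own edgeR fit 0, 1 and 2 of the 2 rows were lower at EGME50, EGME60 and EGME75 (0%, 4.6% and 37.9% of its 174 rows tested). Their median log2 fold change at EGME75 was -3.99 with TMM factors, -2.78 with RLE factors and -0.07 with totals alone. The medians of all rows of that table under these scalings were 0.59, 1.85 and 4.67. With totals alone 96.6% of its rows were called higher at EGME75, so the value of -0.07 says little about Mt_rRNA.

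Each entry was then set against the Mt_rRNA counts of the same library. From EGME0 to EGME75 the mean log2 ratio to Mt_rRNA moved by -0.53 to 0.33 over the 50 falling entries, with a median of -0.05. Over the 162 rising entries it moved by 3.38 to 9.16, with a median of 5.33. Dividing by 1 count per library shifts all entries alike, so the distance between the sets was already fixed by the calls that defined them, and the ratio adds only where each set stood relative to Mt_rRNA. The 8 remaining entries moved by 3.72 to 7.21, within the range of the rising set.

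**Figure D4:**
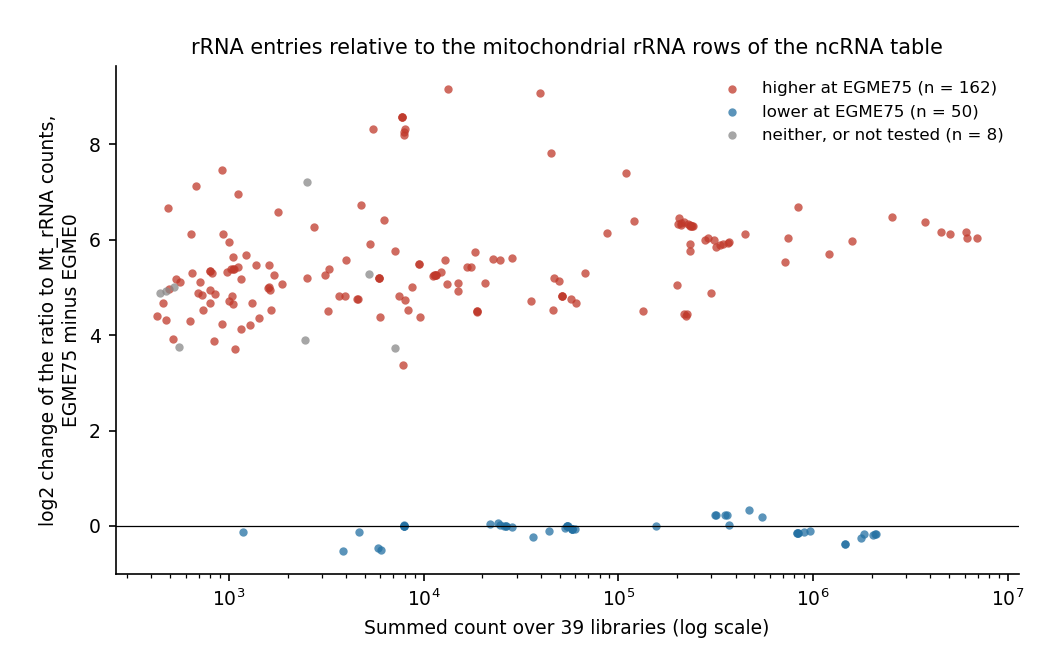
Change from EGME0 to EGME75 in the mean log2 ratio of each rRNA entry to the mitochondrial rRNA rows of the ncRNA table (y axis) against the entry's summed count (x axis, log scale), coloured by its call at EGME75. The 50 falling entries lie between -0.53 and 0.33 at all abundances, and the 162 rising entries lie at 3.38 and above.

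The group medians of the falling set relative to Mt_rRNA were close, while single libraries varied from 40.4 to 264 counts per 100 Mt_rRNA counts. In dose order it had 75.0 ± 36.5 (SD), 77.7 ± 36.2, 95.2 ± 67.0 and 65.7 ± 18.3 counts per 100 Mt_rRNA counts, with medians of 66.9, 68.9, 72.2 and 66.5. EGME60 replicate 6 (264) and EGME0 replicate 33 (170) were the highest. The rising set had medians of 9.73, 38.3, 113 and 675 counts per 100 Mt_rRNA counts. Among the EGME0 libraries alone, the SD of the log2 ratio to Mt_rRNA had a median of 0.42 over the falling entries and 1.27 over the rising entries. The rising entries also had fewer counts, with a median summed count of 8176.5 against 57733, and the part of counting noise in their SD was not tested.

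The ncRNA table also held rRNA rows outside the mitochondrial class, on few reads: their summed count per library had a median of 125.5 (lowest 2) at EGME0 and 962 (lowest 43) at EGME75. Of its 48 such rows tested, 0 were higher at EGME50 (0.575% of all rows of that table), 19 at EGME60 (23.6%) and 31 at EGME75 (34.5%), and none was lower in any of the 3 comparisons. Of all 127 such rows, 76 had distinct counts. The summed count took identical rows once, but the fit kept every row, so 1 count pattern may be called more than once. The median log2 fold change of the 48 rows at EGME75 was 1.15, against 0.59 over all 174 rows. With RLE factors the counts were 11, 47 and 47, where 21.8%, 48.3% and 51.7% of all rows were called higher. With totals alone they were 27, 48 and 48, but 42.0%, 97.7% and 96.6% of all rows were called higher, so those counts say little about rRNA.

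Other RNAs of ribosome production and RNA processing were counted in the same RNAcentral fit. The snoRNAs, which guide modification of rRNA in the nucleolus, had 32 rows tested, of which 0 were higher at EGME50, 16 at EGME60 and 0 at EGME75, where 1.49%, 20.3% and 19.8% of all rows were. Their median log2 fold changes were 1.23, 1.71 and 0.67. The 2 tested rows of the RNase class, whose catalytic RNAs cleave precursor tRNA and rRNA, had the same log2 fold changes and were called at EGME60 (2.50) and EGME75 (2.37). The signal recognition particle RNAs, which direct ribosomes to the endoplasmic reticulum, had 18 rows tested, of which 0, 7 and 0 were higher at the 3 doses (1.49%, 20.3% and 19.8% of all rows), with medians of 0.01, 1.29 and 0.38. No row of these classes was lower in any of the 3 comparisons. The difference between these classes and the rRNA entries was not tested.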

How the data were processed

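The authors deposited raw sense-strand read counts in 4 tables (RNAcentral, Ensembl ncRNA, genomic tRNA and mature miRNA), and every column matched a sample. FastQC, Bowtie and DESeq2 are named in the submitters' processing notes, while alignment settings and the treatment of reads matching several entries are not given in the sources used here. Per the labels' protocols, RNA was isolated with a mirVana kit and DNase, and libraries were built from 10 ng with an Ion total RNA kit.

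The whole RNAcentral count table was fitted with edgeR 4.0.16 (R 4.3.3, limma 3.58.1, data.table version 1.17.8), using TMM factors, filterByExpr with the dose groups, and the robust form of the two-sided quasi-likelihood test in all 39 libraries. Benjamini-Hochberg adjustment ran over all 2757 rows tested, at a threshold of 0.05. A repeat fit used the summed counts of the 220 rRNA entries as library size. The script was tested on simulated data. In the share of rRNA counts, rRNA rows with identical counts entered once and the denominator kept every row. Shares and effective numbers were compared by permutation (100000, exact at n = 9, 20000 with the chip block), adjusted over 3 doses. The log2 ratio to Mt_rRNA was descriptive. Python used numpy 2.4.6, scipy 1.17.1, pandas 2.3.3 and matplotlib 3.10.9.

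The entries, sets and lists were chosen with earlier results of these data known. The entries named were the most abundant of each set, the rising entry with the smallest p and the entry with the largest fall, both at EGME75. Because identifiers come without gene names, only 2 per direction are printed. P-values measure the spread between single males. Alternatives were RLE factors, library totals, no filter, DESeq2 1.42.0, limma-voom, chip blocks, collapsed rows, a summed count of 3900 and leaving out each library.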

Additional observations from a re-analysis of the deposited data

Results flagged for a closer look

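In 5 of 44 group and measure combinations, 1 library lay far from the rest of its group by Dixon's criterion, which chance alone does in about 1 of 20. EGME75 replicate 16 had the lowest rising share of its group, 30.4%, and the lowest CPM of URS0000CCF7C7, 38072. EGME0 replicate 33 had 170 counts of the falling set per 100 Mt_rRNA counts, and 45.7 CPM of URS00008C644C, both the highest among the controls. EGME60 replicate 6 had 264 counts of the falling set per 100 Mt_rRNA counts.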

How the results depend on the processing

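No paired analysis was possible because each replicate number was carried by 1 male in 1 dose group. Among the 4 named entries, the rRNA share and the effective number, no result past its threshold turned its direction under any alternative tried. For the rising and falling sets, signs were compared under the 3 whole-table scalings only. For the whole-table EGME50 comparison (8 calls), DESeq2 gave 17 calls, while a random chip block (limma-voom) and a fixed chip block both gave 0 (38 and 21 entries at an unadjusted p under 0.05). For EGME60 (161 calls) the minimum of 3900 gave 103 of 153 entries, fewer because fewer entries were counted. Within the rRNA, EGME50 (10 calls) gave 1 with TMM factors within the rRNA, 16 with DESeq2 and 0 with the chip block (50 unadjusted). EGME60 (112) gave 58 with those TMM factors and 45 without the filter, EGME75 (183) gave 119 and 116, and the slope (174) gave 105 without the filter. Without the filter the whole-table slope fell for 6 entries instead of 38, and with RLE factors, totals alone, DESeq2 or chip blocks for 47 to 51. The causes of these shifts were not tested. The rRNA share at EGME60 passed with the 4 tables as denominator (11.2 points, adjusted exact permutation p = 0.0149), and the effective number at EGME75 passed as the inverse Simpson index (-6.48). Leaving out each library in turn gave 0 to 23, 150 to 169, 201 to 217 and 168 to 207 calls in the whole table at EGME50, EGME60, EGME75 and for the slope, and 1 to 13, 79 to 144, 175 to 187 and 163 to 181 within the rRNA. The rRNA share then differed by -1.24 to 1.26, 8.26 to 14.1 and 25.95 to 30.7 points, and the effective number by 4.54 to 7.68, -1.19 to 1.80 and -6.03 to -2.97. Thinning each library to 68019 rRNA counts moved no effective number across the threshold. Entries of low count in the shallow EGME0 replicate 33 and EGME75 replicate 24 rest on few reads.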
